A study of Homo sapiens with 36 samples.

Results

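The SR protein genes examined here were SRSF1, SRSF2, SRSF3, SRSF4, SRSF5, SRSF6, SRSF7, SRSF9, SRSF10 and SRSF11, 10 of the 6821 protein-coding genes that held a PAR-CLIP cluster in at least 4 of the 18 lists. The members were chosen by name. A cluster was counted in a gene when its midpoint lay on the gene's strand within the gene body of GENCODE 44 on GRCh38. In this way 1274 clusters were placed in the 10 genes over all lists, 696 of them in the 6 SCAF IP lists, 81 in the control IPs and 497 in the inputs.

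PAR-CLIP maps the RNA that a protein touches in living cells. Cells take up 4-thiouridine (4SU), which is crosslinked to bound protein by long-wave UV light and leaves a T-to-C change in the reads, and a cluster is a stretch of overlapping reads that carry such changes. SCAF4 and SCAF8 are nuclear RNA-binding proteins with an SR-rich region and a domain that binds the tail of RNA polymerase II. The cells were Flp-In T-REx HEK293, a human embryonic kidney line in which a transgene is inserted at a single fixed site. There were 6 groups of 3 lists: IP and input of a line expressing FLAG-SCAF4, IP and input of a line expressing FLAG-SCAF8, and IP and input of the parental line, which makes no tagged protein and whose FLAG pull-out is called control IP. Per the labels, all lines were given 4SU at 100 uM overnight and 500 uM for 2 h and 2000 J per m2 of 365 nm light, and the tagged lines were given 100 ng per mL doxycycline to switch on the transgene. The study's methods give a higher doxycycline dose and name the parental line as well, so the dose, and whether the control cells received the drug, are uncertain. Each tagged line was a single Flp-In insertion line, so that a line and its protein cannot be told apart, and both lines also kept their own SCAF4 and SCAF8 genes. The identity of the cells could not be checked with markers, because the lists hold no expression values.

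The lists differed in length, and this bears on every level below. The 6 SCAF IP lists held 18287 to 54404 clusters, the 9 inputs 4567 to 12493 and the 3 control IPs 1621 to 9638. The files hold no reads, so read depth is unknown. Replicates 2 and 3 of the control IP, with 2314 and 1621 clusters, were the shortest lists and left few clusters in any single gene.

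SR proteins bind exonic RNA through RNA recognition motifs and recruit the splicing machinery through a tail rich in arginine and serine. Their own genes are known for a feedback loop: most carry a poison exon, a cassette exon with an early stop codon that lies in a long, strongly conserved intron. When the exon is included the mRNA is degraded by nonsense-mediated decay, and an excess of the protein favours inclusion. A poison exon was defined here as an exon of an annotated nonsense-mediated decay transcript that lies wholly within an intron of the canonical isoform. By this definition 8 members had 16 poison exons, and SRSF1 and SRSF5 had none. Neither a stop codon nor use as a cassette exon was checked, and first and last exons of such transcripts were not set aside. The 4 SRSF4 exons belong to the same decay transcripts, so not each of them need hold the stop codon. The exons are thus annotated candidates.

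The annotated poison exons carried clusters in the SCAF4 and SCAF8 IPs. Of the 16 poison exons, 9 were overlapped by at least 20 nt of a cluster in at least 2 of the 6 SCAF IP lists, against 7.45% of the 4190 poison exons of all genes tested. The number overlapped in all 6 lists was 7, against 1.41% of all. They were the poison exon of SRSF2, poison exons 2, 3 and 4 of SRSF4 (numbered from the 5' end of the gene), the poison exon of SRSF6, poison exon 2 of SRSF7 and the poison exon of SRSF10. These 10 genes also held more clusters than most genes, and their internal coding exons stood above the background too: 33 of 40 were overlapped in at least 2 SCAF IP lists, against 22.2% of the 69005 internal coding exons of all genes tested, and 19 of 40 in all 6, against 3.93%. In the inputs, at least 2 of the 9 lists overlapped 5 of the 16 poison exons, against 1.77% of all, and 16 of the 40 internal coding exons, against 4.41%. At least 1 control IP list overlapped 4 of the poison exons, against 1.5% of all, and 17 of the coding exons, against 4.69%.

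The 30 nt at the centre of the stretch that most SCAF IP lists shared in these 7 poison exons are given here because they are where the IPs met in each exon. Each is read 5' to 3' on the transcribed strand from GRCh38, in the order SRSF2 (chr17:76735809-76735838, minus strand), SRSF4 (chr1:29166822-29166851, chr1:29165945-29165974 and chr1:29159940-29159969, minus strand), SRSF6 (chr20:43459320-43459349, plus strand), SRSF7 (chr2:38748959-38748988, minus strand) and SRSF10 (chr1:23978147-23978176, minus strand). Capitals mark a match to the string CGG or the string CGA, to the longer strings CCAGC or else CCAGG, to the pair GCAGC or else GCAGG, to the short string CTCC or else to CACC, or to the purine string GAAGAA. They were searched on the transcribed strand alone and may overlap each other.
SRSF2 poison exon 1: attgcagattttaactgatttggctgatcc
SRSF4 poison exon 2: tagctctaatcagagagcccttggtgtgcg
SRSF4 poison exon 3: caaaactcacatcctgctgatggttggctg
SRSF4 poison exon 4: ggctgaccaaaaacaggaagccatgtgacg
SRSF6 poison exon 1: gaggattccaagggttagacaaaactggtt
SRSF7 poison exon 2: atctagatGCAGCGAtCGGctatagatact
SRSF10 poison exon 1: gacctcttaaggatcaggcttgaagagaag

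The SRSF7 stretch held GCAGC, CGA and CGG, and the other 6 held none of the 9 strings. Over the same kind of window in all 41704 regions found in at least 2 SCAF IP lists, 54.4% held at least 1 of them: CGG was in 21.3%, CGA in 18.5%, GCAGC in 3.99% and CTCC in 10.3%. Each window was shared by 6 SCAF IP lists, apart from that of SRSF10, which was shared by 5. 4SU is built in at T, and the 7 windows held between 3 and 12 T.

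SRSF7, a factor that also helps to export mRNA from the nucleus, gave the most one-sided poison exon together with SRSF4. Its poison exon 2 (chr2:38748898-38749346, 449 nt, in intron 3) was covered over 38.3%, 65.3% and 63.7% of its length in SCAF4 IP replicates 1, 2 and 3 and over 30.3%, 27.6% and 64.8% in SCAF8 IP replicates 1, 2 and 3. It was covered in none of the 3 control IPs and none of the 9 inputs. The cover lay in the downstream part of the exon, between 38748898 and 38749200. The inputs held few clusters anywhere in SRSF7, namely 0 to 5 a list, and the control IPs 0 to 3. Poison exons 1 and 3 of SRSF7 held no cluster in any list.

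SRSF4, which encodes the longest classical SR protein, had 4 poison exons, 3 of them in its first intron of 21128 nt. Poison exon 3 (chr1:29165890-29166064, 175 nt) was covered over 85.1%, 94.9% and 86.9% of its length in the SCAF4 IPs and over 83.4%, 80% and 84% in the SCAF8 IPs, and in no control IP or input. Poison exon 1 (chr1:29168503-29168638, 136 nt) was covered over 87.5% to 94.1% in 5 SCAF IP lists, was uncovered in SCAF8 IP replicate 1, and was covered in 1 input. Poison exons 2 and 4 were overlapped in all 6 SCAF IP lists and in 3 and 2 of the inputs. Poison exon 2 was also covered over 97.3% of its length in control IP replicate 1. Thus all 4 SRSF4 poison exons carried clusters with either tagged protein. In all genes tested, 4.22% of poison exons had a cluster in at least 2 SCAF IP lists and in no input or control IP, and among the members these were 2 of 16, SRSF7 poison exon 2 and SRSF4 poison exon 3. For internal coding exons the corresponding numbers were 13.7% of all and 11 of the members' 40.

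The other poison exons ranged from covered in both kinds of list to empty. The SRSF2 poison exon (chr17:76735772-76735875, 104 nt) lies in an intron downstream of the stop codon and was covered in all 6 SCAF IPs, 6 of the 9 inputs and 1 control IP. SRSF2 acts in exon definition and stays in the nucleus. The SRSF6 poison exon (chr20:43459153-43459420, 268 nt) and the SRSF10 poison exon (chr1:23977911-23978273, 363 nt) were overlapped in all 6 SCAF IPs, in 3 and 2 inputs, and each in 1 control IP. SRSF10 is known as a splicing repressor when it is dephosphorylated. The 456 nt poison exon of SRSF3 (chr6:36599821-36600276), the exon through which SRSF3 limits its own mRNA, was overlapped only in SCAF8 IP replicate 3, over 19.1% of its length, and the other SRSF3 poison exon was empty. The SRSF9 poison exon (chr12:120464733-120464822, 90 nt) was overlapped in 3 SCAF IPs and 1 input. Of the 3 poison exons of SRSF11, a factor that binds early spliceosome components, 2 were empty and 1 was overlapped only in SCAF8 IP replicate 1.

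**Figure D1:**
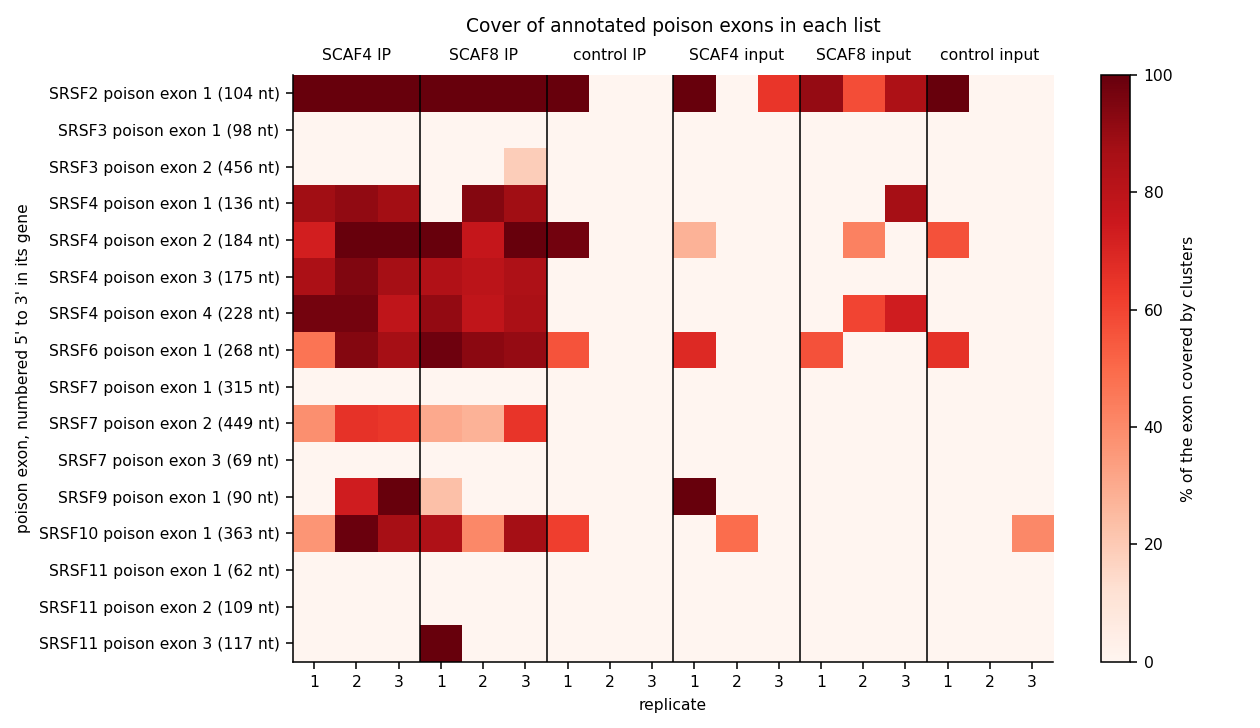
Share of each annotated poison exon covered by clusters (colour, percent) in each of the 18 lists (columns, grouped by IP or input and numbered by replicate). The rows of SRSF4 poison exon 3 and SRSF7 poison exon 2 are filled in the 6 SCAF IP lists and empty in the other 12.

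Placed by midpoint on the canonical isoform, clusters of the 10 genes lay more in poison exons and less in 3' UTRs in the SCAF IPs than in the inputs. Poison exons took 7.98% ± 1.24 (SD, n = 6 lists) of the member clusters in the SCAF IPs, 2.63% ± 1.30 (n = 9) in the inputs and 2.42% ± 4.20 (n = 3) in the control IPs. The 6 SCAF IP values of 6.37% to 9.45% lay above the 9 input values of 0% to 4.17%, while control IP replicate 1, at 7.27%, lay within them. Over all genes tested, the same exons took 0.681% in the SCAF IPs and 0.533% in the inputs. Poison exons also made up more of the members' length, 1.503% against 0.144% over all genes tested. No test was made over the members for placement.

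SRSF4 gave 23 of the 55 poison-exon clusters of the SCAF IPs. Without SRSF4 the share was 5.62% ± 1.34 in the SCAF IPs and 2.497% ± 1.82 in the inputs, and the ranges, 4.49% to 7.77% and 0% to 5%, overlapped. The rest of the poison-exon introns took 21.3% ± 4.06 of clusters in the SCAF IPs and 18.02% ± 7.68 in the inputs. SRSF4 alone gave 82 of these 152 SCAF IP clusters and 57 of the 95 input clusters. In contrast, the control IPs placed 3 of their 81 clusters there. Introns without a poison exon also took more in the SCAF IPs, 10.7% ± 3.32 against 4.61% ± 2.40 in the inputs, with overlapping ranges. All introns together took 40.0% ± 6.55 and 25.3% ± 10.3, so the rise was not confined to poison exons. Over all genes tested the order for introns was the other way, at 32.1% in the SCAF IPs and 37.9% in the inputs.

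The 3' UTRs took 20.9% ± 3.02 of member clusters in the SCAF IPs, 36.0% ± 3.64 in the inputs and 23.6% ± 6.17 in the control IPs. The SCAF IP values (17.9% to 25.2%) and input values (29.2% to 42.9%) did not overlap. Without SRSF1 they did: the share was 14.3% ± 3.86 (10.7% to 20.2%) in the SCAF IPs and 24.8% ± 5.73 (11.8% to 30.8%) in the inputs. The same order held over all genes tested, at 13.7% and 22.7%, so it was not particular to the SR protein genes. Coding exons took 35.4% ± 5.62 in the SCAF IPs and 36.9% ± 7.90 in the inputs, values that overlapped, and 64.6% ± 15.1 in the control IPs. Here the members differed from all genes tested. Over those, coding exons took 47.2% (40.9% to 53.7%) in the SCAF IPs and 32.2% (25.8% to 38.8%) in the inputs, without overlap. By length, coding exons were the densest part in the SCAF IPs, with 4.52 clusters per kb and list. Poison exons followed with 2.84, 5' UTRs with 2.39 and 3' UTRs with 0.987. In the inputs the corresponding densities were 2.19, 0.483, 0.797 and 0.807 clusters per kb and list, so that poison exons ranked below 5' and 3' UTRs there. Introns were sparser but also denser in the SCAF IPs than in the inputs. The rest of the poison-exon introns had 0.682 against 0.284 and introns without a poison exon 0.238 against 0.0530.

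**Figure D2:**
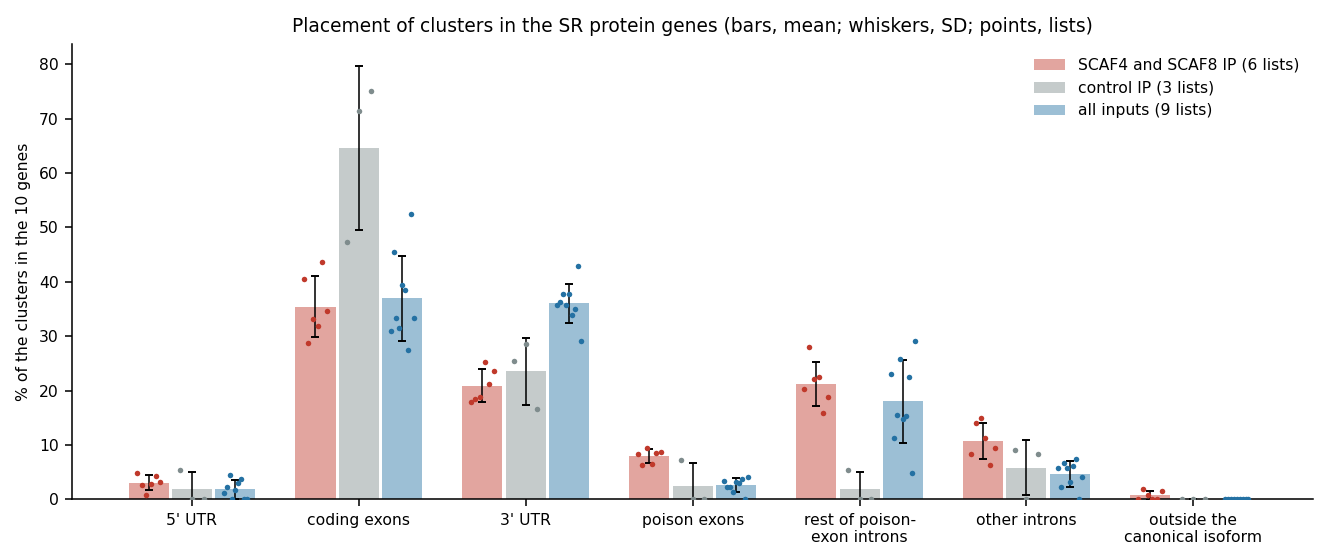
Share of the clusters of the 10 genes (y axis, percent) in each part of the canonical isoform (x axis), for the 6 SCAF IPs, 3 control IPs and 9 inputs; bars are means, whiskers SD and points single lists. Poison exons hold 7.98% of clusters in the SCAF IPs and 2.63% in the inputs, and 3' UTRs hold 20.9% and 36.0%.

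The members differed in where their clusters lay. SRSF1, the founding SR protein and an activator of splicing through exonic enhancers, had 56 of its 80 SCAF IP clusters in the 3' UTR, and 76 input clusters there. SRSF11 had 39 SCAF IP clusters in constitutive coding exons, SRSF6 had 28, and SRSF4 and SRSF5 had 26 each. In the inputs SRSF11 had 17 there, SRSF6 had 9, SRSF4 had 11 and SRSF5 had 14. SRSF5, without a poison exon by the definition used here, had 25 SCAF IP clusters in introns, 10 of them in intron 5 and 6 in intron 6. The inputs had 14 intronic clusters in SRSF5, 12 of them in intron 5 and 2 in intron 6, and the control IPs had 3. SRSF9, a short SR protein, had 22 intronic SCAF IP clusters outside its poison exon and none there in the inputs. SRSF3 and SRSF10 had 7 and 26 clusters in the rest of their poison-exon introns in the SCAF IPs, and 2 and 19 in the inputs.

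**Figure D3:**
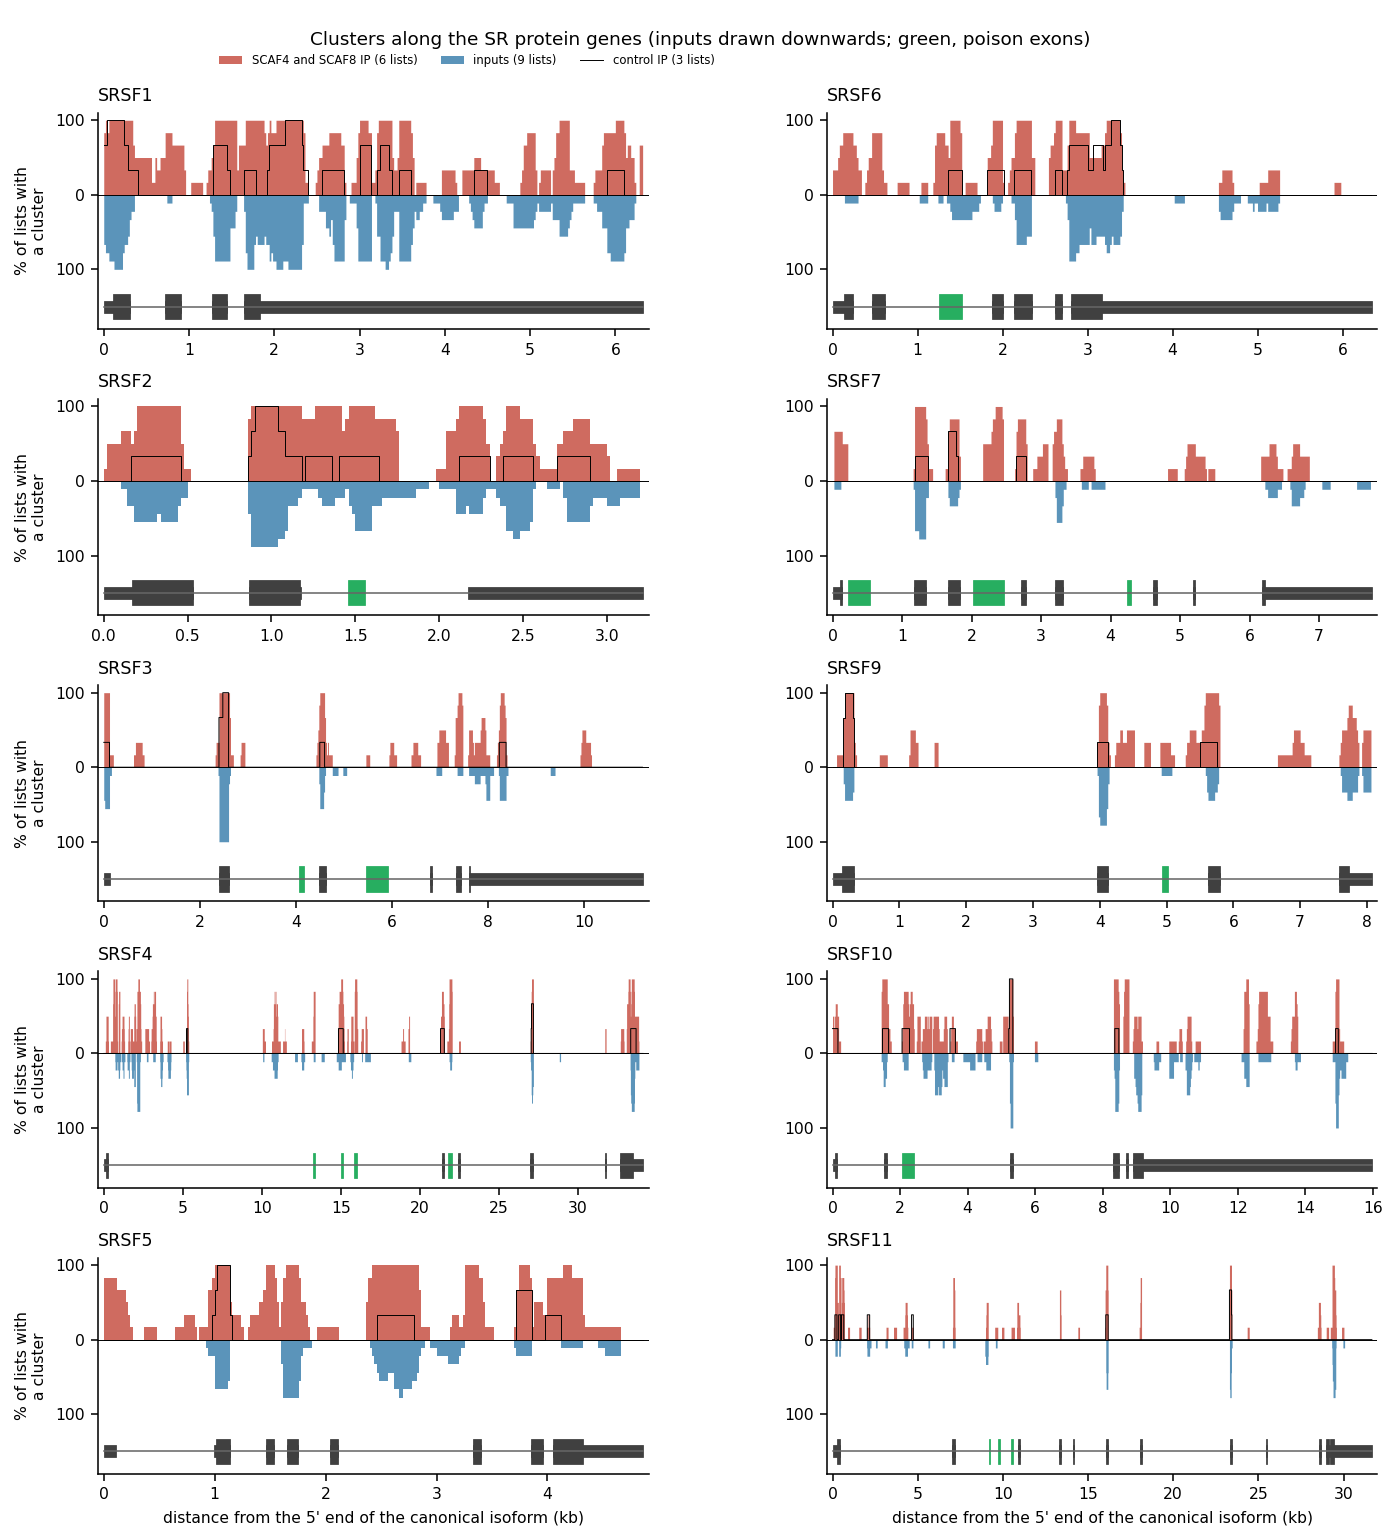
Share of lists with a cluster (y axis, percent) along the canonical isoform of each gene (x axis, kb from its 5' end), with the 6 SCAF IPs upwards, the 9 inputs downwards and the 3 control IPs as a line; boxes are exons (tall, coding) and green boxes poison exons. In SRSF1 IP and input peaks face each other along the 3' UTR, while SRSF7 poison exon 2 has a peak on the IP side alone.

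The 30 nt most shared by the SCAF IPs outside poison exons are shown for a member of each kind, on GRCh38: the 3' UTR of SRSF1 (chr17:58005050-58005079, minus strand), a constitutive coding exon of SRSF3 (chr6:36596861-36596890, plus strand), an intron of SRSF5 (chr14:69770918-69770947, plus strand) and a constitutive coding exon of SRSF9 (chr12:120464056-120464085, minus strand). Capitals mark the same strings as above.
SRSF1 3' UTR: tcttatgtttatcttgcttttcatgtgtct
SRSF3 coding exon: tggaccaCTCCGAagtgtgtgggttgctag
SRSF5 intron: acttacctagactgctgtgtgcaatgtgtg
SRSF9 coding exon: tcacatgCGAgaagctggggatgtctgtta

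All 4 were shared by 6 SCAF IP lists. The SRSF1 stretch held 18 T and none of the strings, and the SRSF3 stretch held CTCC and CGA. The SRSF1 and SRSF3 regions were also covered in all 9 inputs, the SRSF5 and SRSF9 regions in 3 and 4 of them.

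Clusters that crossed an exon edge were more frequent in the SCAF IPs than in the inputs. Of the member clusters, 17.5% ± 2.48 (SD, n = 6) spanned a 5' splice site of the canonical isoform by at least 10 nt on either side in the SCAF IPs, against 7.49% ± 3.04 (n = 9) in the inputs and 10.0% ± 3.98 (n = 3) in the control IPs. The SCAF4 IPs ranged from 19.0% to 20.5% and the SCAF8 IPs from 13.8% to 16.8%. Both lay above the inputs, which ranged from 4.17% to 13.3%. The highest control IP, at 14.5%, lay within the SCAF8 IP range and below the SCAF4 IP range. At 3' splice sites the values were 19.1% ± 2.06 in the SCAF IPs and 6.33% ± 2.14 in the inputs, again without overlap. The control IPs, at 14.6% ± 6.67 (7.14% to 20%), overlapped the SCAF IP range of 16.8% to 22.05% there. Over all genes tested, 13.1% of SCAF IP and 4.72% of input clusters spanned a 5' splice site and 12.5% and 4.58% a 3' splice site, the same order as in the members. For the control IPs these shares over all genes were 5.93% and 10.6%. The edges of poison exons were spanned by 5.00% ± 0.759 of member clusters in the SCAF IPs and 2.04% ± 1.79 in the inputs, and these ranges overlapped.

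In cluster number, the members held more clusters in the SCAF IPs than in the inputs, and as a share of each list they held fewer. The 10 genes held 84 to 157 clusters in a SCAF IP list, 44 to 87 in an input of the tagged lines and 12 to 55 in a control IP. As a share of the list this was 0.392% ± 0.0859 (SD, n = 6) in the SCAF IPs, 0.770% ± 0.121 (n = 6) in their own inputs, 0.639% ± 0.0897 (n = 3) in the control IPs and 0.524% ± 0.101 (n = 3) in the control inputs. The share moved with list length within the SCAF IPs: the longest list (54404 clusters) gave 0.289% and the shortest (18287 clusters) 0.514%. The inputs nearest to that length, control input replicate 1 (12493 clusters) and SCAF4 input replicate 1 (11715 clusters), gave 0.640% and 0.743%. The part of list length in the differences of share was not tested beyond the alternatives given below.

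Scaled to clusters per 10000 of the list and compared as log2(value + 1) by an exact permutation test of the 6 SCAF IPs against their 6 inputs, 4 members were lower in the SCAF IPs at an adjusted p under 0.05 and 0 were higher. Over all 6821 genes, 3.96% were called lower and 6.6% higher. All 10 members had a log2 difference below 0, with a median of -0.58 against 0.29 over all genes, of which 26.9% were below 0. The direction depends on the scaling: on unscaled cluster numbers 6 members (SRSF3, SRSF4, SRSF5, SRSF9, SRSF10 and SRSF11) were called higher and 0 lower, where 46% of all genes were called higher. The exact permutation test took no account of the extract shared by each IP and the input of its number. Permuted only within replicate numbers, no member and no gene passed, with a smallest p of 0.00926 in that test. With each list cut to its 4793 highest-scoring clusters, the members held 22.5 ± 9.93 clusters in the SCAF IPs and 36.5 ± 6.38 in the inputs, 7 of 10 log2 differences were below 0, and no member and no gene was called.

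SRSF1 had 10, 13 and 15 clusters in the SCAF4 IPs, 13, 15 and 14 in the SCAF8 IPs, 15, 12 and 13 in the SCAF4 inputs, 12, 13 and 10 in the SCAF8 inputs and 13, 8 and 7 in the control inputs. Its numbers were thus alike in IP and input, while the IP lists were longer. Per 10000 clusters it fell to 4.80 ± 2.00 in the SCAF IPs from 16.7 ± 6.80 in the inputs (log2 difference -1.60, adjusted p = 0.0250, exact permutation test, n = 6 and 6), rank 3 from the lowest of all genes tested, and the groups did not overlap. Nearly all of its clusters, 199 of 200, also lay within a readthrough gene on the same strand (ENSG00000266086).

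SRSF2 had 7, 8 and 8 clusters in the SCAF4 IPs, 5, 6 and 8 in the SCAF8 IPs, 6, 4 and 3 in the SCAF4 inputs, 10, 6 and 7 in the SCAF8 inputs, 7, 1 and 1 in the control IPs and 7, 1 and 2 in the control inputs. Per 10000 it was lower in the SCAF IPs, at 2.45 ± 0.857 against 7.28 ± 2.09 (log2 difference -1.26, adjusted p = 0.0250, exact permutation test, n = 6 and 6), again without overlap. Genes whose groups did not overlap in this direction made up 3.01% of all genes tested, and in the other direction 5.64%, which included no member.

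SRSF10, with 10, 23 and 17 clusters in the SCAF4 IPs and 13, 13 and 22 in the SCAF8 IPs, had 11, 8 and 7 in the SCAF4 inputs and 11, 6 and 12 in the SCAF8 inputs. Per 10000 it was lower in the SCAF IPs, at 5.34 ± 0.9505 against 11.8 ± 3.66 (log2 difference -0.96, adjusted p = 0.0410, exact permutation test, n = 6 and 6). SRSF3 had 5, 13 and 9 clusters in the SCAF4 IPs, 8, 7 and 10 in the SCAF8 IPs, 5, 3 and 3 in the SCAF4 inputs and 3, 5 and 5 in the SCAF8 inputs. It was also lower per 10000, at 2.85 ± 0.558 against 5.01 ± 1.11 (log2 difference -0.63, adjusted p = 0.0410, exact permutation test, n = 6 and 6). For both genes the groups overlapped. On unscaled numbers SRSF3 and SRSF10 turned to log2 differences of 0.93 and 0.75, both called.

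The other 6 members did not pass on the scaled values, with log2 differences from -0.70 (SRSF6, adjusted p = 0.0953, exact permutation test) to -0.26 (SRSF11, adjusted p = 0.489). SRSF4 had the most clusters of the family, 18, 33 and 24 in the SCAF4 IPs, 18, 19 and 23 in the SCAF8 IPs, 17, 3 and 7 in the SCAF4 inputs and 10, 12 and 11 in the SCAF8 inputs. Every SCAF IP list held more SRSF4 clusters than any input in number, while per 10000 clusters its mean was 7.61 ± 1.92 in the SCAF IPs and 11.6 ± 3.20 in the inputs (log2 difference -0.53, adjusted p = 0.134). Its unscaled log2 difference was 1.20 (adjusted p = 0.0147, exact permutation test).

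**Figure D4:**
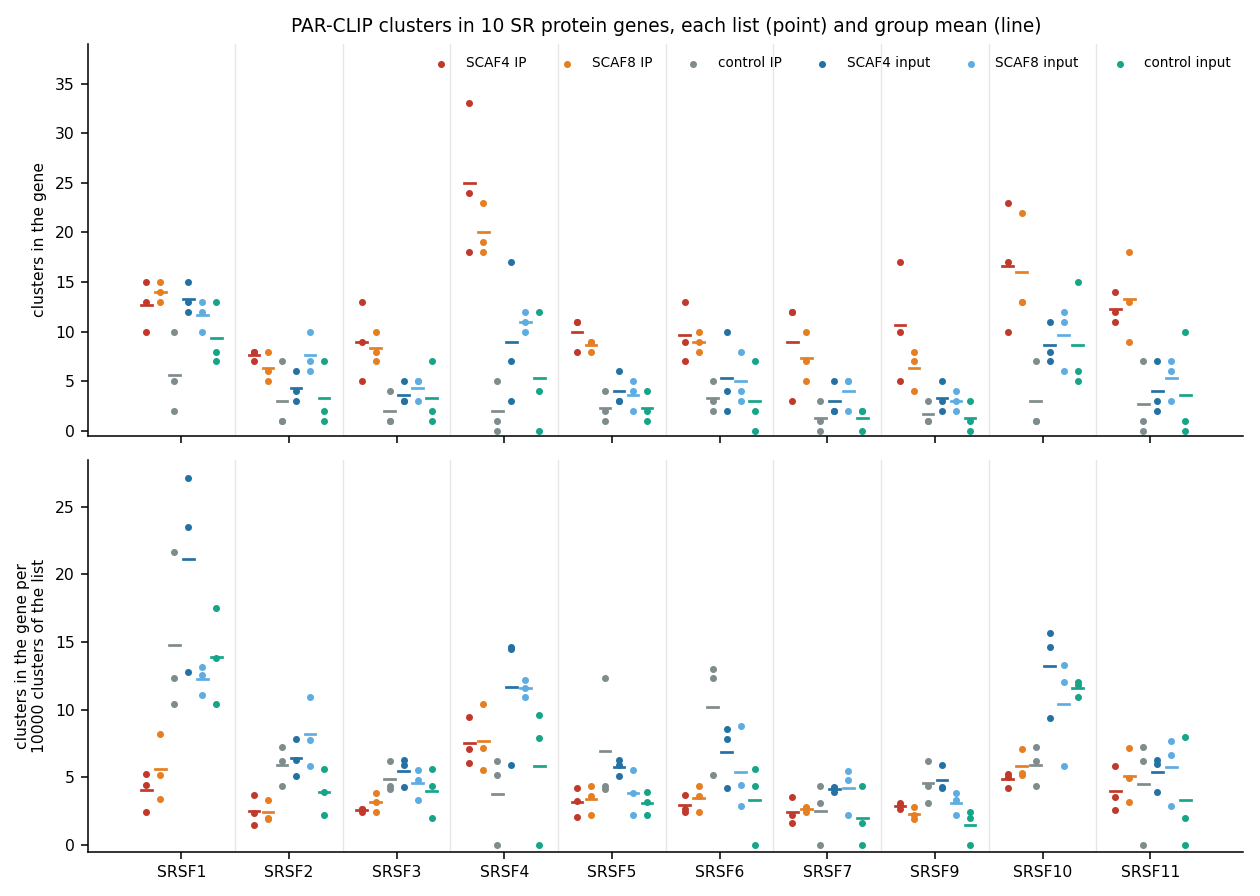
Clusters in each gene (upper panel, number; lower panel, per 10000 clusters of the list) for every list (points, coloured by group) with group means (lines). For SRSF4 every SCAF IP lies above every input in number, and for SRSF1 and SRSF2 every SCAF IP lies below its inputs after scaling.

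Within the tagged lines, the SCAF4 line 8 of 10 members had all 3 IP values per 10000 below all 3 input values (7.86% of all genes), and in the SCAF8 line 3 of 10 did (7.95% of all genes), namely SRSF1, SRSF2 and SRSF4. No member lay wholly above in either line (29.6% and 14.9% of all genes). The difference between the lines was tested by an interaction term in limma, and it passed for no member and for no gene at an adjusted p under 0.05, the nearest member being SRSF1 with a difference of -1.05 ± 0.495 (SE, adjusted p = 0.775). In that line-by-line view 3 lists against 3 cannot give a two-sided permutation p below 0.1.

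Compared with the control IP, 4 members (SRSF1, SRSF2, SRSF3 and SRSF6) lay wholly below in the SCAF IPs per 10000 clusters and 0 wholly above, where 3.2% and 16.2% of all genes did. No gene passed an adjusted p under 0.05 in this comparison, in which the smallest p was 0.0119 before and 0.0684 after adjustment. SRSF1 had 10, 5 and 2 clusters in the control IPs, which per 10000 came to 14.8 ± 6.00 against 4.80 ± 2.00 in the SCAF IPs (log2 difference -1.45). SRSF6, which had 5, 3 and 2 clusters in the control IPs, differed by -1.35. SRSF2 had 7, 1 and 1 clusters there and SRSF3 had 4, 1 and 1, and 1 cluster came to 4.32 per 10000 in replicate 2 and 6.17 in replicate 3. With lists cut to equal length, 1621 clusters each, no member lay wholly below the control IP. The 10 genes together then held 3 to 10 clusters in a SCAF IP list (mean 6 ± 2.53) and 11 to 12 in a control IP list (mean 11.7 ± 0.577). In that setting 8 of 10 log2 differences were below 0, with a median of -1.14 against 0.30 over all genes. SRSF4 was the member that stood highest against the control IP, with 5, 0 and 1 clusters there, 3.79 ± 3.31 per 10000, and a log2 difference of 1.25, but the groups overlapped. In unscaled numbers 7 members lay wholly above the control IP (30.1% of all genes). In the parental line, SRSF5 and SRSF9 lay wholly above the control input in the control IP per 10000 clusters and SRSF10 wholly below, where 0.968% and 2.8% of all genes did. SRSF5 had 4, 1 and 2 clusters in the control IPs and the same numbers in the control inputs. SRSF9 had 3, 1 and 1 against 3, 0 and 1, and SRSF10 had 7, 1 and 1 against 15, 5 and 6. For SRSF5 and SRSF9 the separation was thus seen only after scaling to list length. The comparisons with inputs, control IP and between the proteins use the same SCAF IP lists, so they are not independent of each other.

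The SCAF4 and SCAF8 IPs were not set apart by any member: 0 of 10 lay wholly above or below, where 10.1% of all genes had SCAF4 above and 6.26% below. The log2 differences, SCAF4 minus SCAF8, ran from -0.37 for SRSF1 to 0.25 for SRSF9, and the lists of both proteins overlapped for every member. SRSF1 had 4.02 ± 1.48 per 10000 in the SCAF4 IPs and 5.58 ± 2.44 in the SCAF8 IPs, and SRSF9 had 2.90 ± 0.249 and 2.30 ± 0.436. With 3 lists a side these values do not show that the proteins bind the members alike.

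**Figure D5:**
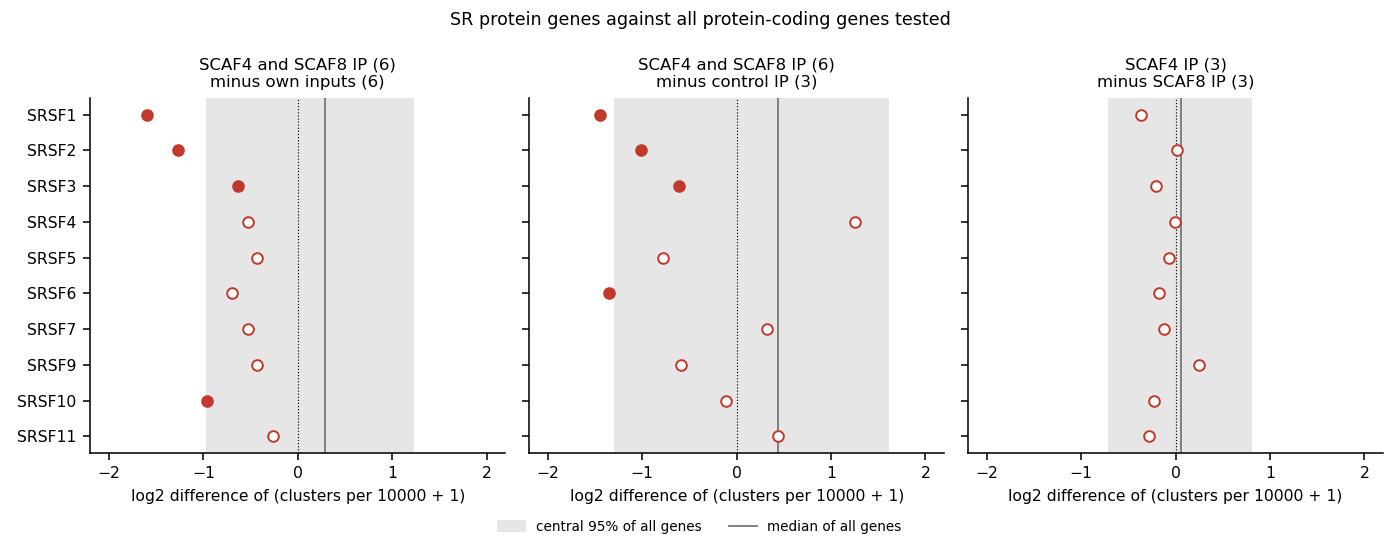
Log2 difference of clusters per 10000 plus 1 for each gene (points) in 3 comparisons; grey bands hold the central 95% of all genes tested and grey lines their median. Filled points passed an adjusted p under 0.05 (left panel) or had groups that did not overlap (other panels); all 10 genes lie below 0 in the left panel and none is filled in the right panel.

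At the level of single binding regions, the 696 SCAF IP clusters of the members merged into 164 regions, of which 51 were found in all 6 lists and 126 in at least 2. Both proteins were seen at 113 of the 126, 10 were found in at least 2 SCAF4 IP lists alone and 3 in at least 2 SCAF8 IP lists alone. Over all regions found in at least 2 lists the shares were 77.4%, 16.3% and 6.24%. No input or control IP cluster overlapped 30 of the 126 regions, against 53.9% of all. These 30 were spread as 7 in SRSF4, 5 each in SRSF3, SRSF9 and SRSF11, 3 in SRSF7, 2 each in SRSF5 and SRSF10 and 1 in SRSF6, with none in SRSF1 or SRSF2.

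A filter rebuilt here from the study's methods left no region of these genes. It dropped regions that overlapped clusters of more than 1 input list, and also every region of a gene whose merged input regions numbered 1 or more per 10 kb, a limit that was met by 32.6% of the genes tested and by all 10 members. A last step dropped regions that overlapped a control IP cluster. Input regions per 10 kb ran from 1.57 in SRSF9 and 1.63 in SRSF5 to 10.2 in SRSF10 and 14.4 in SRSF1, against a median of 0.475 over genes tested. SRSF9 and SRSF5 thus lay nearest the limit among the members, but this depends on the annotated length of their gene bodies. Outside the canonical isoforms of 8077 nt (SRSF9) and 4864 nt (SRSF5), these bodies held a further 26198 nt and 40242 nt. Those outer parts held 0 input clusters in either gene, so they lowered the density. Density over the canonical isoform alone was not tested. The rebuilt filter is not the authors' own set of regions and can differ from it in how clusters were merged and counted. From 126 regions, 51 were left after the step on input overlap, 0 after the step on input density, and 46 when the density step alone was left out and the control IP step kept. The 46 were 14 in SRSF4, 7 in SRSF3, 6 each in SRSF9 and SRSF11, 5 in SRSF10, 4 in SRSF7, 2 each in SRSF5 and SRSF6 and 0 in SRSF1 and SRSF2. Of all 41704 regions, 16742 passed every step as rebuilt.

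The other genes of the SR pathway, a list of 32 with the SR protein kinases, the importer TNPO3, SR-like splicing factors and nuclear speckle proteins, moved in the same direction where they passed. Of the 29 tested, 8 were called lower per 10000 clusters in the SCAF IPs than in their inputs and 0 higher, with a median log2 difference of -0.14. SRRM2 and SON, which form the core of nuclear speckles, were the lowest called, at -1.56 and -1.21 (adjusted p = 0.0250 and 0.0410, exact permutation test). Of the 23 hnRNP genes tested, another family of RNA-binding proteins, 9 were called lower and 0 higher, with a median of -0.81, so the direction was not particular to the SR protein genes. Over the 18 lists the scaled values of the members correlated with each other at a mean Spearman coefficient of 0.351. The lists share length and line, so these correlations are descriptions.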

How the data were processed

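Per the labels and the study's methods, the authors trimmed the reads with Trim Galore and cutadapt, aligned them to GRCh38 with Bowtie2 2.2.9, removed duplicates with Picard, pooled both cell fractions (soluble and chromatin) of each replicate, and called clusters with PARalyzer. Each of the 18 deposited lists (36 libraries) gives position, strand and an unnamed score for every cluster, which served here for ranking alone. A cluster needed a minimum of reads and T-to-C changes, so a short or shallow list misses weak sites, and replicate 1 had longer reads. The lists precede the authors' removal of input and control IP clusters.

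Clusters were counted by midpoint in gene bodies of GENCODE 44, scaled per 10000 clusters of the list and compared as log2(value + 1) with Python 3.11.15, numpy 2.4.6 and pandas 2.3.3. Genes with a cluster in at least 4 of 18 lists (6821 of 20033) were tested by exact permutation of lists with Benjamini-Hochberg adjustment. With 924 splits at least 296 genes must share the smallest p, 0.00216, before any is called. limma 3.58.1 (R 4.3.3) was an alternative and gave the interaction test. The permutation test, but not limma, was tried on simulated data. Each IP and the input of its number shared an extract, by the study's methods. Over 6821 genes, deviations of same-numbered IP and input correlated at 0.0272 to 0.341 and of other numbers at -0.252 to 0.141. Of the 12 IP and input lists of the tagged lines, 10 correlated best with their own number. The methods call the lists biological replicates without saying how cultures were separated, so p-values measure the spread between these lists. No 2 lists were identical. Pseudogene copies of the members held 27 clusters over all lists, so reads shared with near-identical copies remain uncertain, and 105 of 106 SRSF6 clusters also lay in another gene on the strand (ENSG00000288000). Counting intervals cannot be given without reads. The 10 members are named in full; of other pathway genes the rule names the 2 lowest and 2 highest called, and none was called higher, so the 2 lowest are named; the genes most like the members by mean Spearman correlation are not reported here. Members and lists were chosen with earlier results of these data known. Alternatives were the scaling, measure, assignment, score, pseudocount, gene filter, test, replicate block, isoform, exon definition, filter steps and each replicate left out; lists cut to equal length were added after the data were seen.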

Additional observations from a re-analysis of the deposited data

How the results depend on the processing

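Of 140 member log2 differences under the alternatives, 98 kept direction and side of the threshold, 25 no longer passed and 17 reversed. The reversals came on unscaled numbers (SRSF1 0.0843, SRSF2 0.25, SRSF3 0.93, SRSF4 1.20, SRSF5 1.14, SRSF6 0.87, SRSF7 0.99, SRSF9 1.10, SRSF10 0.75 and SRSF11 1.36), with only the higher-scoring clusters of each list (SRSF3 0.45, SRSF9 0.0538 and SRSF11 0.61), with lists of equal length (SRSF3 0.11, SRSF9 0.48 and SRSF11 0.67) and, for SRSF11, without replicate 3 (-0.42 to 0.00497 over the replicates left out). Unscaled, 6 members were called higher and 0 lower than their inputs, 7 lay above and 0 below the control IP, and 3137 genes were called higher and 0 lower. With the replicate block 0 members and 0 genes passed in either direction, and a call there needs 1264 genes at the smallest p. With the higher-scoring clusters alone (median score or above) 0 members and 0 genes were called against inputs, and 1 member lay above and 0 below the control IP. With lists of equal length, chosen after seeing the data, 0 members and 0 genes were called and 0 members lay below the control IP. Counting genes in at least 1 list left 2 members lower, genes in at least 8 lists 248 genes higher, limma 1817 genes higher, and covered nucleotides 1 member above the control IP. Wider exon definition gave 33.3% of clusters in poison-exon introns, and omitting the density step 46 regions. Without 1 replicate, members lower and all genes called were 0 to 0 (smallest p 0.0286, too large for a call), SCAF4 above SCAF8 ran from 0 to 1, below from 0 to 2, and above the control IP from 0 to 1. The cause of these shifts was not tested. Unknown read depth limits every absence.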
